A study of Mus musculus with 14 samples.

Results

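Atoh1, which encodes the transcription factor that specifies the rhombic lip lineages of the hindbrain, and WPRE, the sequence that tags the transcript of the lineage reporter, were followed through 14 single-cell RNA sequencing libraries. They are 2 of the 31054 features counted in every library and were chosen by name, because one reports the present expression of the lineage gene and the other its past expression in the same cell. Libraries (10x Genomics, 3′ ends) were made from living (DAPI-) TdTomato-positive cells sorted from C57BL/6J mice. At E14.5 and E18.5, whole hindbrains gave 3 control and 3 Atoh1 S193A mutant libraries per stage, each from 1 embryo with its littermate of the other genotype. At P5, the pontine nuclei (PN) of several control pups were dissected and pooled for each of 2 libraries. The controls carried Atoh1 Cre/+ and Rosa lsl-TdTomato/+, and the mutants Atoh1 Cre/S193A and Rosa lsl-TdTomato/+. In every group, Cre therefore replaced the Atoh1 coding region on 1 allele, so that no library came from a mouse with both wild-type copies, and Atoh1 Cre drove the reporter.

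ATOH1 is a basic helix-loop-helix protein that binds E-box sites together with E proteins such as TCF3, and it promotes neuronal fate in progenitors that divide at the rhombic lip. Its own expression is transient, and it is switched off as granule neurons and precerebellar neurons mature. Cre recombination is permanent, so a reporter that was switched on in a progenitor continues to be made from the Rosa locus in its descendants. WPRE is a stretch of woodchuck hepatitis virus that stabilises transcripts that carry it, and the authors added it to the mm10 reference so that reads of the TdTomato transcript could be counted.

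The S193A allele changes 1 codon of Atoh1. The gene lies on chromosome 6, positions 64729125 to 64731245 on the plus strand of GRCm38, and consists of a single exon with 1053 coding bases, a 5′ UTR of 198 bases and a 3′ UTR of 870 bases. The reference stretch around codon 193, chr6:64729887-64729913 on the plus strand, is shown because it is the site of the mutation, with the serine codon in capitals.
Atoh1 codon 193: gacaagaagctgTCCaaatatgagacc
This codon ends 1344 bases before the annotated end of the transcript, whereas the libraries tag the 3′ ends of transcripts. The Atoh1 counts therefore do not distinguish the S193A from the wild-type allele and do not check the genotype labels. Whether transcripts of the Cre allele that keep the Atoh1 3′ UTR were counted as Atoh1 was not tested. The reporter was inserted at Gt(ROSA)26Sor, on the minus strand of the same chromosome at positions 113067428 to 113077333.

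After removal of cells with under 1000 genes or at least 5% mitochondrial UMIs and of probable doublets, 80250 of 150188 barcodes were kept, 3248 to 8726 per library. The kept cells held 59991217 to 185029057 UMIs per library, and the median cell held 12010.5 to 20922. Any 2 libraries shared 13 to 67 barcodes, with a median of 32 over 91 pairs. Control libraries 1 and 2 of E14.5 were counted with Cell Ranger 3.1.0 according to their headers and the other libraries with 5.0.1. This version therefore cannot be fully told apart from the genotype at E14.5, or from the stage where control libraries of both embryonic stages are compared.

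Levels are given first as CPM, the UMIs of a gene per 1000000 of the UMIs summed over the kept cells of a library. In E14.5 controls, Atoh1 was at 136.6, 55.0 and 57.5 CPM in replicates 1 to 3, and in their mutant littermates at 143.8, 86.2 and 100.3 CPM. In E18.5 controls it was at 34.4, 35.4 and 28.6 CPM, and in the mutants at 54.0, 45.9 and 31.7 CPM. The P5 libraries had 2.36 and 3.84 CPM. Every E18.5 library was thus below every E14.5 library, and both P5 libraries were below all of these. Cells that had Atoh1 UMIs also had fewer of them at later stages, with a mean of 3.3 to 6.1 per positive cell at E14.5, 1.7 to 2.2 at E18.5 and 1.07 and 1.20 at P5.

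WPRE did not follow this course. It was at 395, 267 and 305 CPM in E14.5 controls and at 440, 231 and 329 CPM in the mutants. At E18.5 it was at 391, 339 and 287 CPM in controls and at 395, 368 and 275 CPM in mutants. The P5 libraries had 338 and 378 CPM. The ranges of all 5 groups overlapped. Every library was sorted for TdTomato, so reporter expression was selected for in all of them. Gt(ROSA)26Sor, the noncoding transcript of the reporter's host locus, had mean levels of 34.3 to 37.2 CPM in the 4 embryonic groups and 66.1 CPM at P5.

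**Figure D1:**
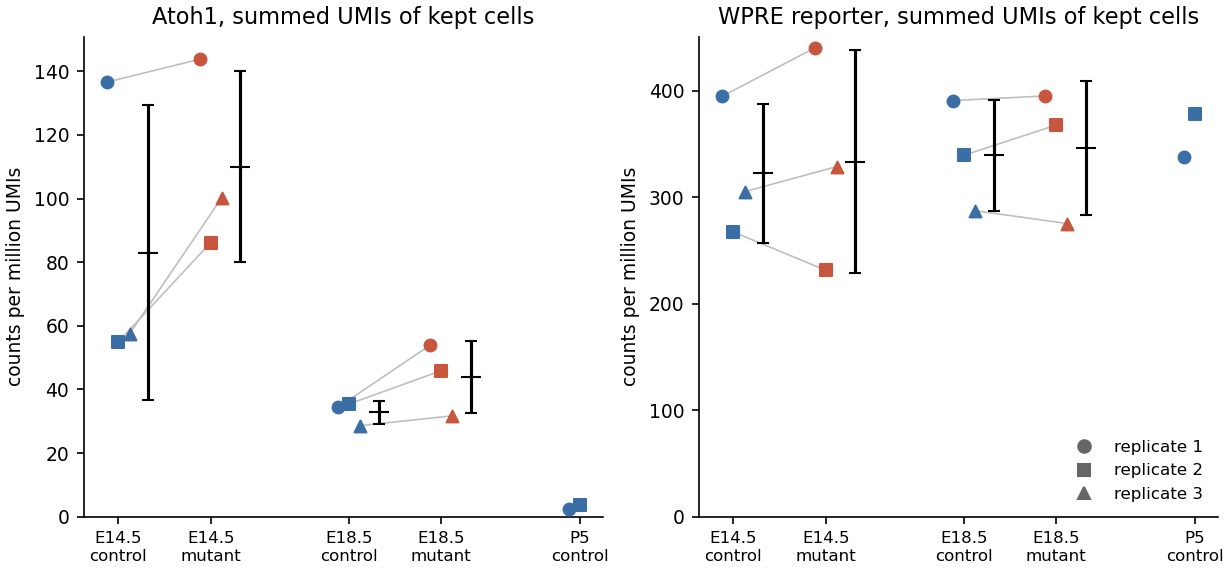
Atoh1 (left) and WPRE (right) in CPM (y axes, linear from 0) by stage and genotype (x axes). Each point is 1 library with its replicate number as marker shape, grey lines join littermates, and black bars are the group mean ± SD (n = 3, none at P5): Atoh1 drops from 55.0 to 143.8 CPM at E14.5 to 2.36 and 3.84 CPM at P5, whereas WPRE stays between 231 and 440 CPM.

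Between E14.5 and E18.5, Atoh1 fell in control hindbrain to 0.377 of its level, a log2 change of -1.41 ± 0.33 (SE, n = 3 libraries per stage, edgeR quasi-likelihood test, Benjamini-Hochberg adjusted p = 0.011). In this comparison 51.5% of the 10291 genes tested were called at an adjusted p under 0.05 and an absolute log2 change over 0.25, so the call by itself did not set Atoh1 apart. Its size leaned on E14.5 control replicate 1, which had the highest level. Without that library the log2 change was -0.89, and the call was kept. WPRE changed by -0.01 ± 0.15 on the log2 scale (adjusted p = 0.96, same test). No test was run for P5, which had 2 libraries of another dissection.

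Atoh1 was higher in the mutant than in its control littermate in 6 of 6 litters. The ratio of mutant to control was 1.05, 1.57 and 1.74 in litters 1 to 3 of E14.5 and 1.57, 1.30 and 1.11 in those of E18.5. The ranges of the genotypes overlapped at both stages. The log2 change was 0.39 ± 0.38 at E14.5 (SE, n = 3 libraries per genotype, edgeR quasi-likelihood adjusted p = 0.72) and 0.41 ± 0.19 at E18.5 (adjusted p = 1.00), and neither passed the test. At E14.5 the size rested on single libraries, with 0.93 without control replicate 1 and 0.15, 0.17 and 0.20 without mutant replicate 1, control replicate 2 and control replicate 3. At E18.5 it was 0.24 without mutant replicate 1 and 0.59 at most, without mutant replicate 3. No fit without 1 library called Atoh1 at either stage. With the litter as a block, the changes were 0.48 ± 0.14 (edgeR adjusted p = 0.064) and 0.38 ± 0.11 (adjusted p = 0.57), which did not pass either. The difference between the stages was 0.02 ± 0.47 (interaction term, edgeR adjusted p = 0.99).

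The number of genes that passed differed between the fits. At E14.5, 1 of 10240 genes was called with edgeR (0.00977%), 249 with DESeq2 (2.43%), and 1830 (17.9%) with the litter block. At E18.5, 0 of 9883 genes were called with edgeR (0%), where 117 had an unadjusted p under 0.05, against 13 with DESeq2 (0.132%) and 37 (0.374%) with the block. For the interaction, 0 of 10533 genes were called with edgeR (0%), 791 had an unadjusted p under 0.05, and 71 were called with DESeq2 (0.674%) and 1564 (14.8%) with the block.

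WPRE went in no constant direction between littermates. The ratio of mutant to control was 1.11, 0.866 and 1.08 at E14.5 and 1.01, 1.08 and 0.958 at E18.5. The log2 changes were 0.03 ± 0.26 at E14.5 (edgeR adjusted p = 0.98) and 0.02 ± 0.16 at E18.5 (adjusted p = 1.00), and their difference was 0.00 ± 0.33 (adjusted p = 1.00).

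A library sum mixes the level per cell with the mix of cells, and fewer cells of a type and less RNA per cell cannot be told apart in it. The mix differed between the genotypes at E14.5. Precerebellar progenitor-like cells, a class high in Atoh1, made up 1.68% ± 0.51 of control cells and 6.32% ± 1.6 of mutant cells (SD, n = 3 libraries each). For this reason, the sums were also computed with each class weighted alike in all libraries of a stage, an alternative added once the values were known. Weighted so, Atoh1 was at 110, 79.6 and 65.9 CPM in E14.5 controls and at 114, 105 and 91.8 CPM in mutants, which still overlapped (log2 change 0.28, exact two-sided permutation p = 0.3). At E18.5 it was at 34.0, 33.6 and 33.0 CPM in controls and 51.4, 43.1 and 39.4 CPM in mutants, and the genotypes no longer overlapped (log2 change 0.41, exact permutation p = 0.1, the smallest that 3 against 3 libraries can give). Weighted so, Atoh1 was higher in the mutant of every litter at both stages, and the permutation test does not use the litters. The same weighting gave WPRE log2 changes of 0.09 (p = 0.7) and 0.03 (p = 0.9) in the exact permutation test.

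The share of cells with a UMI depends on depth, so cells were thinned to 5000 UMIs each, which left out 57 to 223 shallower cells per embryonic library and 980 and 339 at P5. Atoh1 was then detected in 27.4%, 13.8% and 16.9% of E14.5 control cells and in 32.2%, 19.8% and 25.4% of mutant cells. At E18.5 the shares were 13.0%, 11.9% and 10.6% in controls and 18.48%, 17.1% and 11.8% in mutants, and at P5 they were 1.19% and 2.10%. The share was higher in the mutant of every litter, yet the genotypes overlapped at both stages (exact two-sided permutation test, p = 0.3 at E14.5 and p = 0.3 at E18.5, each 0.8 when adjusted over 8 tests of shares). Thinned to 8000 UMIs instead, the E18.5 shares were 17.9%, 18.2% and 15.0% in controls and 26.4%, 24.5% and 18.3% in mutants, which no longer overlapped (exact permutation p = 0.1, the smallest possible), while those at E14.5 still did. In untouched cells, Atoh1 was found in 26.04% to 51.2% of cells at E14.5, 23.6% to 38.8% at E18.5, and 4.69% and 7.69% at P5.

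The reporter was detected in most cells at every stage, but cells had been sorted for TdTomato, so its presence was selected for. Thinned cells had a WPRE UMI in 75.6%, 65.2% and 72.1% of E14.5 controls and in 79.7%, 63.3% and 76.1% of mutants. At E18.5 the shares were 82.9%, 78.1% and 73.5% in controls and 83.4%, 80.7% and 72.3% in mutants, and at P5 70.5% and 72.9%. The genotypes overlapped at both stages (exact permutation p = 0.7 and 0.9, adjusted 0.9 each). Without thinning, WPRE was detected in 81.3% to 97.6% of the cells of a library.

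Both transcripts together were found in 16.03% ± 6.6 of thinned E14.5 control cells and 21.4% ± 7.0 of mutant cells (SD, n = 3). At E18.5 the means were 9.28% ± 1.5 and 12.6% ± 3.4. Cells with neither made up 25.7% ± 5.8 of controls and 22.5% ± 7.9 of mutants at E14.5, and 19.2% ± 4.5 and 18.1% ± 5.9 at E18.5. Cells with both were more frequent in the mutant of 6 of 6 litters. None of these 4 comparisons separated the genotypes (exact permutation p = 0.4, 0.3, 0.5 and 0.8, adjusted 0.8 to 0.9).

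**Figure D2:**
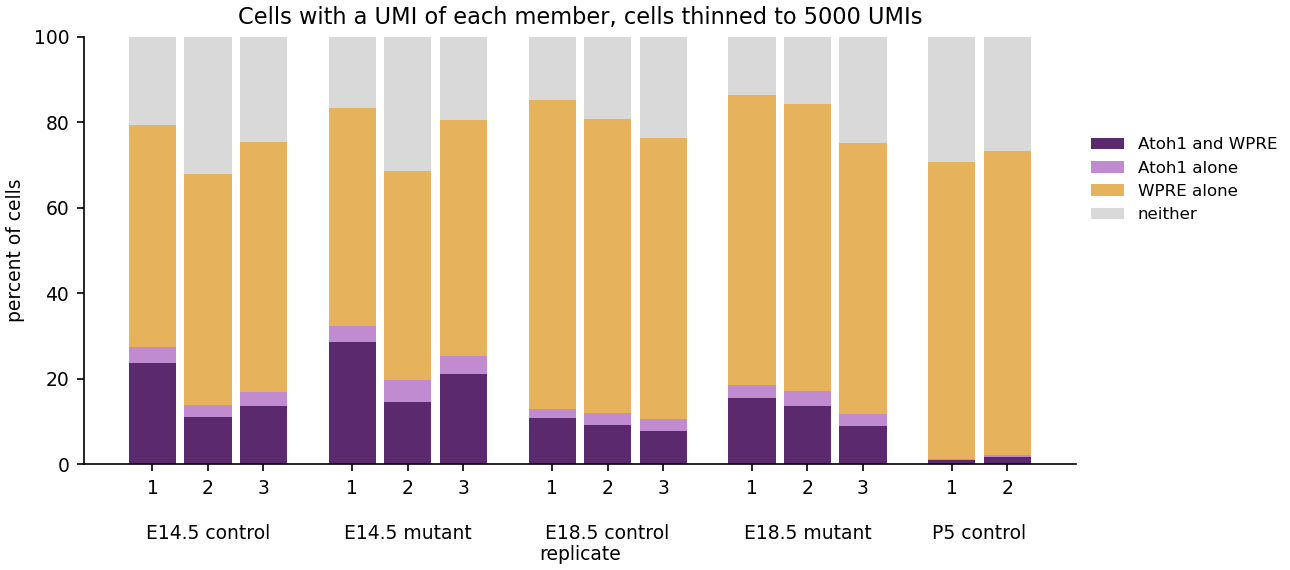
Percent of cells, each thinned to 5000 UMIs, with a UMI of both transcripts, of Atoh1 alone, of WPRE alone or of neither (y axis, stacked bars that start at 0) in each library (x axis, replicates by stage and genotype). The parts with Atoh1 together go from 13.8% to 32.2% of cells at E14.5 down to 1.19% and 2.10% at P5, while those with WPRE remain between 63.3% and 83.4%.

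In E14.5 controls, cells with Atoh1 had WPRE more often than cells without it, in 82.0% ± 3.4 against 68.3% ± 4.8 of thinned cells (SD, n = 3). Within single classes the gap varied. It was 69.0% against 62.8% in precerebellar progenitor-like cells and 87.6% against 85.9% in precerebellar differentiated neuron-like cells, but 83.2% against 66.7% in intermediate progenitor-like cells, few of which lacked Atoh1. At E18.5 no such gap was seen over all control cells, with 78.1% ± 4.3 against 78.2% ± 4.8. These values describe cells of the same libraries and were not tested.

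Cells of each stage were clustered without Atoh1, WPRE and the genes of the network below, and classes were named "-like" from marker genes. At E14.5, precerebellar-like cells, chosen by Hox genes and other caudal rhombic lip markers, were divided into progenitor-like, intermediate progenitor-like, 2 migrating neuron-like and differentiated neuron-like states by marker lists that the study had derived from these libraries. The names are therefore not independent of the study's own clusters. Granule lineage-like cells were chosen by Pax6, Neurod1 and low Hox genes. They were divided by cycling genes, by the level of Neurod1, a factor of granule cell differentiation, and by Mapt, which encodes the axonal protein tau. Clusters whose 10 leading genes held more markers of another class than of their own are given by number. A tie, or no marker of any class, left the name in place, so a kept name can have leading genes of another class. Among E14.5 granule lineage-like clusters, the Mapt-high cluster and a Neurod1-low cluster had such ties with unipolar brush cell markers. Clusters that matched no class name are given by their genes.

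In E14.5 controls, Atoh1 was highest in precerebellar intermediate progenitor-like cells, with 748, 547 and 530 CPM in replicates 1 to 3. The study characterised this state by high Atoh1, so that its place at the top is not independent of its name. Next came migrating neuron-1-like cells, with a mean of 477 ± 152 CPM (SD, n = 3), and these 2 states overlapped each other but no other class. A middle group that overlapped from neighbour to neighbour comprised precerebellar progenitor-like cells (190 ± 48 CPM), Neurod1-low granule lineage-like cells (186 ± 68 CPM) and their cycling counterparts (169 ± 42 CPM). It continued through migrating neuron-2-like cells (88.6 ± 39 CPM), Pax6 and Sox2 clusters low in Hox genes (72.8 ± 24 CPM), clusters with Pax6, Lhx2 and Hox genes (69.1 ± 44 CPM) and Mapt-high granule lineage-like cells (23.1 ± 7.1 CPM).

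Below these were further classes of maturing neurons, of which the first did not overlap the Mapt-high granule lineage-like cells and the other two reached into their range. Clusters with Mapt and no further assignment had 13.0 ± 1.5 CPM of Atoh1, Lhx9 and Mapt clusters 12.4 ± 3.2 CPM, and precerebellar differentiated neuron-like cells 12.2 ± 3.1 CPM. Atoh1 was thus 50.0-fold lower in differentiated than in intermediate progenitor-like cells of the precerebellar lineage. Choroid plexus-like, inhibitory-like, Tcf7l2-positive and glia-like cells had mean levels of 0.674 to 3.37 CPM and overlapped one another.

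WPRE had another order. It was highest in migrating neuron-2-like cells (550 ± 103 CPM, SD, n = 3), Mapt-high granule lineage-like cells (507 ± 70 CPM) and migrating neuron-1-like cells (492 ± 84 CPM), followed by precerebellar differentiated neuron-like cells (413 ± 74 CPM). The state richest in Atoh1, the precerebellar intermediate progenitor-like state, had 360 ± 51 CPM of WPRE, and the progenitor-like state 255 ± 20 CPM. The ranges of neighbours overlapped down to the unassigned Mapt clusters (333 ± 39 CPM), and those of the next 4 classes, from 278 to 238 CPM, overlapped each other. Inhibitory-like (55.3 ± 22 CPM), Tcf7l2-positive (35.2 ± 7.6 CPM) and glia-like cells (23.5 ± 7.6 CPM) lay below all of these. The same 3 classes had a WPRE UMI in 15.95%, 12.7% and 12.1% of thinned cells, against 86.1% in precerebellar differentiated neuron-like cells at the same depth. Whether cells of these 3 classes carried the reporter was not tested, so their values are not a measured background for the other shares.

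Thinned to the same depth, Atoh1 was found in 94.2% of intermediate progenitor-like cells of E14.5 controls and in 81.9% of migrating neuron-1-like, 38.0% of progenitor-like, 25.9% of migrating neuron-2-like and 4.94% of differentiated neuron-like cells. Glia-like cells, which should lack Atoh1, had it in 0.70%. Between migrating and differentiated states, Atoh1 thus dropped in the share of cells and in CPM, which counts all cells of a state. These measures depend on each other, and the level per positive cell was not computed for single states. WPRE was kept in 91.4%, 91.6% and 86.1% of the cells of the 3 neuronal states.

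**Figure D3:**
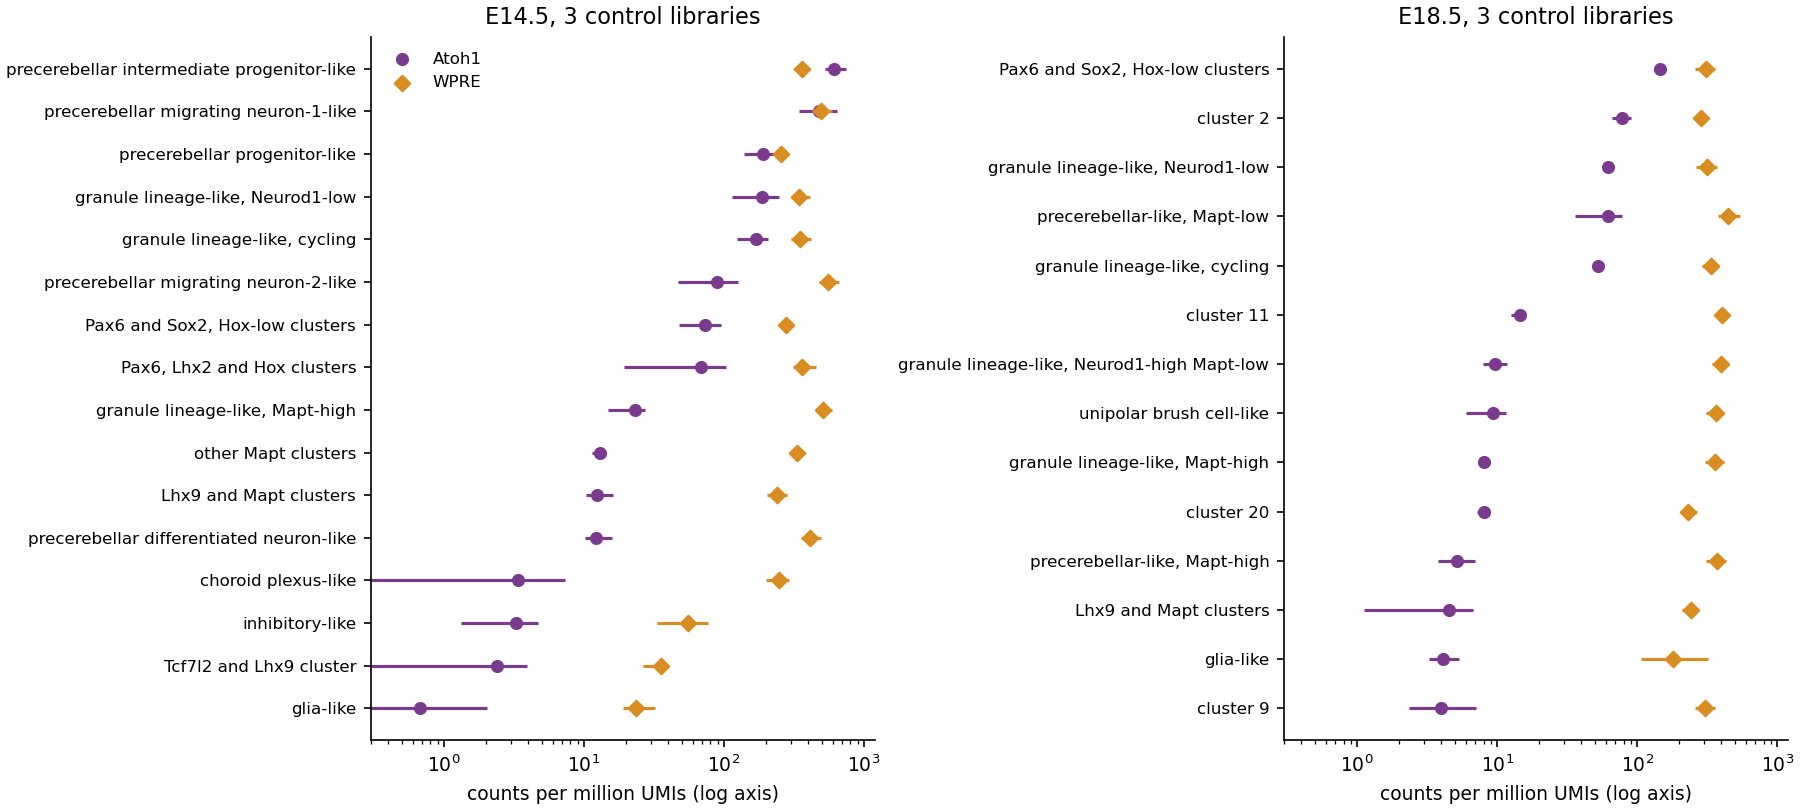
Atoh1 (circles) and WPRE (diamonds) in the classes of the 3 control libraries of E14.5 (left) and E18.5 (right), ordered by Atoh1 (x axes, CPM on a log scale). Symbols are means and lines run from the lowest to the highest library, with a library at 0 drawn at the left edge: Atoh1 spans 0.674 to 608 CPM over the E14.5 classes, whereas WPRE is between 238 and 550 CPM in all E14.5 classes but the inhibitory-like, Tcf7l2-positive and glia-like, and between 181 and 449 CPM over the E18.5 classes.

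At E18.5, Atoh1 was highest in a Pax6 and Sox2 cluster low in Hox genes, led by Pvalb, Pdlim3 and Mfap4, with 159, 131 and 144 CPM in the controls. Cluster 2, led by Ccnd2, Mgarp and Otx2, followed with 78.4 ± 12 CPM and did not overlap it. Then came Neurod1-low granule lineage-like cells (62.2 ± 2.8 CPM), Mapt-low precerebellar-like cells (61.6 ± 23 CPM) and cycling granule lineage-like cells (52.3 ± 3.6 CPM). Each of these 3 overlapped the next, and the first did not overlap cluster 2. Cluster 11, with Eomes, Neurod1 and Otx2 among its leading genes, stood alone at 14.7 ± 1.8 CPM.

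Lower levels that overlapped among themselves were found in Neurod1-high Mapt-low granule lineage-like cells (9.62 ± 2.0 CPM), unipolar brush cell-like cells (9.32 ± 3.0 CPM), Mapt-high granule lineage-like cells (8.08 ± 0.50 CPM) and cluster 20 (8.01 ± 0.75 CPM). Mapt-high precerebellar-like, Lhx9 and Mapt, glia-like cells and cluster 9 had 4.00 to 5.14 CPM. Neurod1-low granule lineage-like cells thus had 186 ± 68 CPM at E14.5 and 62.2 ± 2.8 CPM at E18.5, and their Mapt-high counterparts 23.1 ± 7.1 and 8.08 ± 0.50 CPM. Since classes were rebuilt at each stage, these values are side by side and were not tested. The Neurod1-low classes also differed in make-up. At E14.5 the class included a cluster with Ccnd2, Otx2, Pax3 and Mdk among its leading genes, which had more Atoh1 than the rest of the class. At E18.5, cluster 2 had these genes among its leading ones too, but was kept apart from the class.

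In the E18.5 classes of this order, WPRE had no such steps. Its means ran from 449 ± 84 CPM in Mapt-low precerebellar-like cells to 232 ± 31 CPM in cluster 20 and 181 ± 122 CPM in glia-like cells, and each class overlapped the next. An unnamed cluster of shallow cells was left out of the order and had less WPRE than any of these, with 63.4, 26.7 and 50.7 CPM in controls. Inhibitory-like, Tcf7l2-positive, microglia-like and endothelial-like clusters of E18.5 held too few cells in some libraries to be placed, and their mean normalised WPRE per cell was below that of every cluster in the order as well.

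Genotypes were then compared within classes, on UMIs summed per library. This gave 28 tests of Atoh1 and 34 of WPRE. The 34 classes include 4 sums over several others. The log2 change of Atoh1 was positive in 26 of 28 tests. A class was tested for Atoh1 if enough cells of either genotype had a UMI of it. A class low in controls could therefore enter through its mutants, as the E18.5 glia-like cells did. Classes left out in this way differed in both directions. The share of positive changes over all genes is not given here, so the count of signs has no background. Of the 28 tests, 12 had an unadjusted p under 0.05. Over all genes, from 62 of 9657 to 804 of 9839 had such a p in the fits of these classes, and 2516 of 10086 in that of all E14.5 precerebellar-like cells together. A single test passed the call rule. The tests share libraries and in part cells, so their number is a description.

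The class called was the Neurod1-high Mapt-low granule lineage-like cluster of E18.5. It had Neurod1, Mfap4 and Nhlh1, a target of ATOH1, among its 10 leading genes, but also Pdgfra, a marker of the oligodendrocyte lineage. Its Atoh1 level was 11.8, 9.05 and 7.98 CPM in controls and 34.3, 30.4 and 25.7 CPM in mutants. Every mutant was more than any control, and the groups did not overlap. The log2 change was 1.62 ± 0.18 (SE, n = 3 libraries per genotype, edgeR quasi-likelihood adjusted p = 7.1e-05), where 0.0444% of 9010 genes were called. The call was kept without any 1 of the 6 libraries, with log2 changes of 1.52 to 1.79. The share of thinned cells with Atoh1 was 4.98% ± 1.8 in controls and 13.3% ± 2.1 in mutants. The class held 176 to 332 cells per library and 4.39% ± 0.88 of control and 5.05% ± 1.1 of mutant cells. Its WPRE level differed by -0.04 on the log2 scale.

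Neighbouring classes of the E18.5 granule lineage had smaller differences in the same direction, without passing. In Mapt-high cells Atoh1 was at 8.32, 8.41 and 7.502 CPM in controls and 18.502, 15.9 and 11.7 CPM in mutants, so that the groups did not overlap. The log2 change was 0.92 ± 0.16 (edgeR adjusted p = 0.79, where 0% of 9349 genes were called). That fit had 241 genes at an unadjusted p under 0.05, and DESeq2 called 3 genes (0.0321%), Atoh1 included (adjusted p = 0.0031). With the litter block the change was also 0.92 and was called (edgeR adjusted p = 1.2e-06, background 0.492%).

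In Neurod1-low granule lineage-like cells, the levels were 64.6, 59.1 and 62.9 CPM in controls and 93.6, 77.2 and 71.6 CPM in mutants, with a log2 change of 0.36 ± 0.10 (edgeR adjusted p = 0.47, background 0.146%). In cycling cells, they were 48.5, 55.8 and 52.7 against 76.7, 62.9 and 60.6 CPM, with a log2 change of 0.33 ± 0.10 (adjusted p = 0.39, background 0.332%). Cluster 2 had 90.4, 66.5 and 78.4 against 95.8, 93.7 and 96.3 CPM, a log2 change of 0.26 ± 0.10 (adjusted p = 0.57, background 0.577%). In these 3 classes the groups did not overlap, though the lowest mutant lay close to the highest control.

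Some classes not assigned to the granule lineage had values in the same direction. Unipolar brush cell-like cells had 11.5, 5.95 and 10.5 CPM of Atoh1 in controls and 13.4, 13.5 and 17.6 CPM in mutants, without overlap, a log2 change of 0.57 ± 0.23 that did not pass (edgeR adjusted p = 1.00). Cluster 11 had 15.4, 16.0 and 12.6 against 26.8, 26.4 and 13.6 CPM, higher in the mutant of 3 of 3 litters but with overlap, a log2 change of 0.63 ± 0.21 (edgeR adjusted p = 1.00). Neither was called with the litter block.

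The class at the top of the E18.5 order did not share this direction. In the Pax6 and Sox2 cluster, the controls had 159, 131 and 144 CPM and the mutants 141, 152 and 126 CPM, a log2 change of -0.02 ± 0.14. Mapt-low precerebellar-like cells had 78.4, 70.8 and 35.8 CPM in controls and 146, 88.9 and 35.8 CPM in mutants, with overlap and a log2 change of 0.79 ± 0.50. Without 1 library, that change ran from 0.14 to 1.01. Cluster 9, with 7.11, 2.53 and 2.36 against 9.80, 10.1 and 6.02 CPM, did not pass the filter on low values for Atoh1. Without that filter its log2 change was 0.95 and was not called (edgeR adjusted p = 0.75).

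At E14.5, the differences with the most separation were in classes of maturing neurons. In Mapt-high granule lineage-like cells Atoh1 was at 27.0, 27.5 and 14.9 CPM in controls and 43.2, 76.3 and 38.6 CPM in mutants, a log2 change of 1.15 ± 0.34 (SE, n = 3, edgeR adjusted p = 1.00). With the litter block it was 1.13 and was called (edgeR adjusted p = 0.034, background 0.0731%). In precerebellar differentiated neuron-like cells it was at 15.8, 10.2 and 10.5 against 23.9, 19.9 and 20.2 CPM, a log2 change of 0.77 ± 0.18. The unassigned Mapt clusters had 13.0, 14.4 and 11.5 against 18.2, 30.3 and 24.2 CPM, a log2 change of 0.85 ± 0.20. None of these 3 classes had overlapping groups. Their fits called 0 genes (0%) with edgeR, with 217 to 228 genes at an unadjusted p under 0.05, and DESeq2 called 3, 0 and 0 genes in them.

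Where Atoh1 was highest at E14.5, the genotypes overlapped. Intermediate progenitor-like cells had 748, 547 and 530 CPM in controls and 722, 594 and 623 CPM in mutants, with overlap and a log2 change of 0.08 ± 0.14. Migrating neuron-1-like cells had 641, 342 and 447 against 698, 346 and 618 CPM, a log2 change of 0.20 ± 0.34. Migrating neuron-2-like cells had 125, 47.0 and 93.6 against 205, 58.7 and 160 CPM, with overlap and a log2 change of 0.65 ± 0.60. With the litter block it was 0.58 and was not called (edgeR adjusted p = 0.051). In both migrating states the mutant was higher in 3 of 3 litters. In progenitor-like cells, the mutant was lower in 3 of 3 litters, with 233, 198 and 139 CPM in controls and 165, 173 and 128 CPM in mutants. That log2 change was -0.34 ± 0.16 and did not pass (background 0.00994%), but was called with the litter block (-0.33, edgeR adjusted p = 0.044, background 1.12%). Without 1 library, the change ran from -0.48 to -0.18. With Cell Ranger 5.0.1 libraries alone it was 0.04, which rests on 1 control against 3 mutant libraries. In litter 3, where both libraries were counted with that version, the mutant was lower. The study had already reported lower Atoh1 in mutant progenitors of these samples, so the values of progenitor-like cells are not independent of it.

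WPRE changed little within classes. Leaving out glia-like, inhibitory-like and Tcf7l2-positive cells, its log2 change was between -0.10 and 0.23 in 30 tests, and the lowest unadjusted p was 0.29. In E18.5 glia-like cells, WPRE was at 322, 115 and 106 CPM in controls and at 581, 408 and 212 CPM in mutants, a log2 change of 1.24 ± 0.60 that was called with the litter block but not without it (1.18, edgeR adjusted p = 0.0089, background 0.243%). Atoh1 in the same cells was at 3.79, 3.28 and 5.32 CPM in controls and 59.4, 39.2 and 5.27 CPM in mutants. These values rest on 120 control and 176 mutant cells. In E14.5 glia-like cells WPRE was at 19.4, 18.9 and 32.3 CPM in controls and 53.9, 30.0 and 42.9 CPM in mutants, higher in 3 of 3 litters but with overlap (log2 change 0.85 ± 0.29). In inhibitory-like cells it was at 33.3, 77.3 and 55.3 against 79.4, 88.2 and 91.3 CPM, without overlap (log2 change 0.56 ± 0.27). Tcf7l2-positive cells had a log2 change of 0.33 ± 0.40, and none of these E14.5 differences was called with or without the block.

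**Figure D4:**
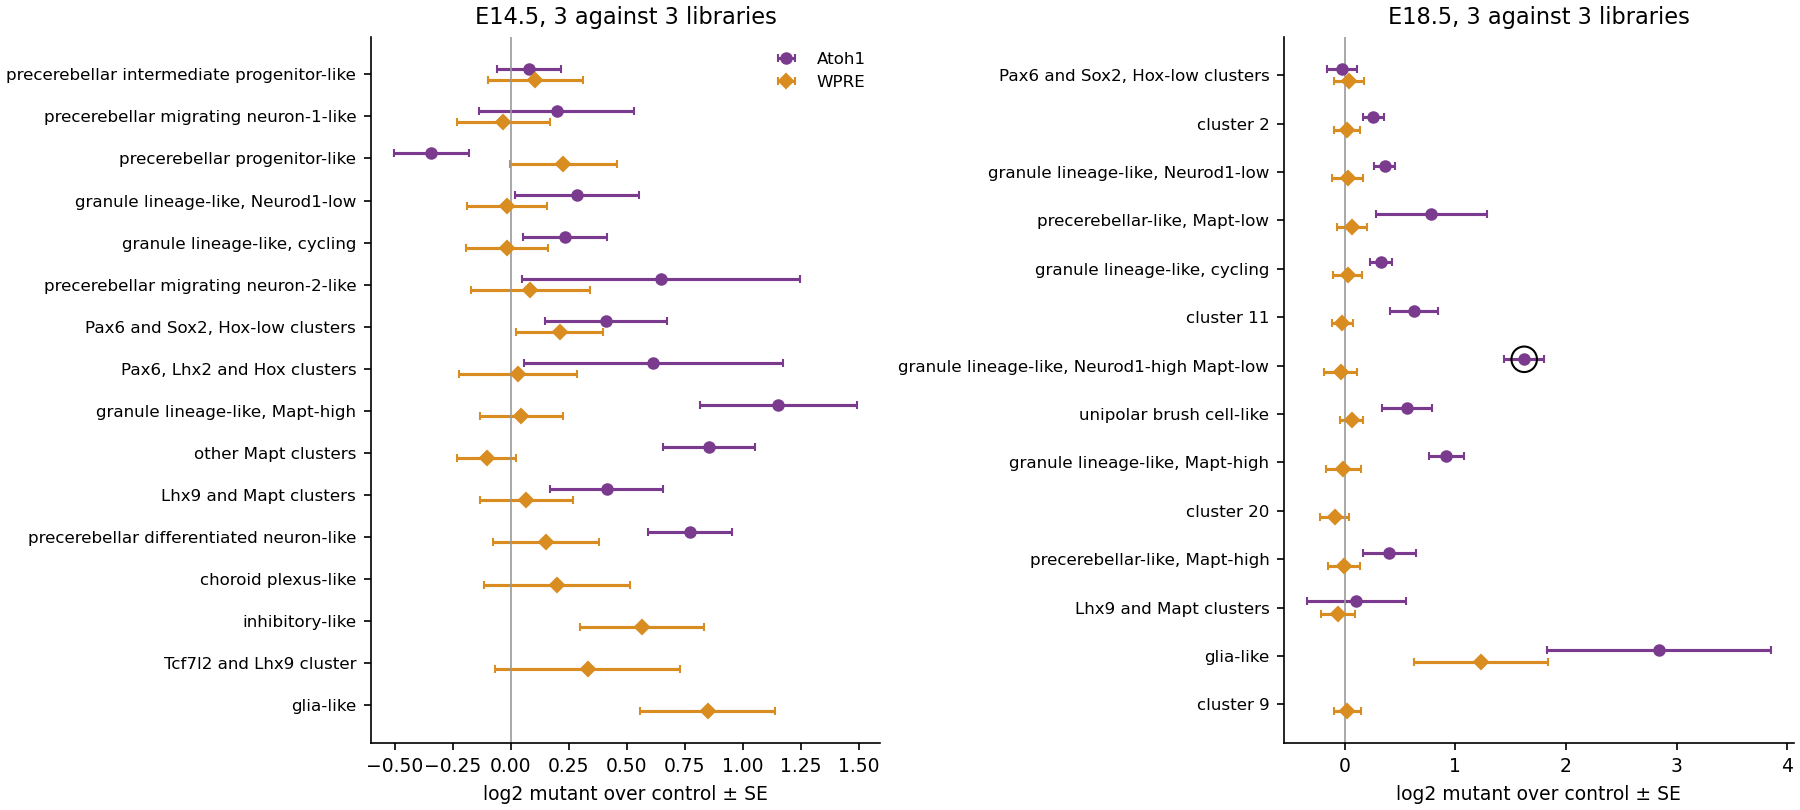
Log2 change of Atoh1 (circles) and WPRE (diamonds), mutant over control, in each class of E14.5 (left) and E18.5 (right), from edgeR on sums of 3 libraries per genotype (x axes, with standard errors as bars). The circled point is the one called, at 1.62 in Neurod1-high Mapt-low granule lineage-like cells of E18.5, and WPRE lies between -0.10 and 0.23 outside glia-like, inhibitory-like and Tcf7l2-positive cells.

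Atoh1 and WPRE levels were followed along diffusion pseudotime in E14.5 precerebellar-like cells thinned to 5000 UMIs. The order was divided into 10 bins from progenitor to differentiated state. Since cells had been sorted for TdTomato, cells before reporter onset were largely not sampled. WPRE was already found in 69.8% of control cells in bin 1. In controls, Atoh1 had means of 206 and 131 CPM in bins 1 and 2, rose to 627 CPM in bin 3 and 572 CPM in bin 4, and fell through 350, 75.2, 27.9 and 15.97 CPM to 13.8 and 5.65 CPM in bins 9 and 10. The share of cells with Atoh1 followed, with 94.8% in bin 3, 25.6% in bin 6 and 2.82% in bin 10. WPRE went from 270 and 294 CPM in the first bins through 370 and 443 CPM to a plateau of 553, 567 and 553 CPM in bins 5 to 7, and then to 351 CPM in bin 10. Atoh1 thus peaked in bin 3 in all 3 control libraries, and WPRE in bins 7, 6 and 5. In control replicate 3, Atoh1 was nearly level in bins 3 and 4, at 518 and 516 CPM.

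The mutants had the same sequence. Atoh1 peaked in bins 4, 3 and 4 and WPRE in bins 6, 6 and 7. In an order made without thinning, Atoh1 peaked in bins 3, 3 and 4 of replicates 1 to 3 in both genotypes. Atoh1 means were 652 CPM in bin 3, 650 CPM in bin 4, 122 CPM in bin 6, 59.7 CPM in bin 7 and 13.2 CPM in bin 10. WPRE was at 607, 636 and 614 CPM in bins 5 to 7 and at 400 CPM in bin 10.

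The Atoh1 levels of the genotypes lay apart in bin 1 and in bins 7, 8 and 10. In bin 7, controls had 39.6, 20.5 and 23.7 CPM and mutants 68.5, 49.1 and 61.4 CPM, and in bin 10 controls had 5.88, 3.03 and 8.04 CPM and mutants 12.9, 11.54 and 15.2 CPM. In bin 1, which held 38, 60 and 44 control cells, the controls were higher, with 221, 193 and 205 CPM against 153, 163 and 136 CPM. In bin 2 the genotypes overlapped, with 205, 143 and 45.0 CPM in controls and 142, 173 and 95.7 CPM in mutants. Of the 10 bins, 4 had no overlap between genotypes in Atoh1 (bins 1, 7, 8 and 10). Single bins were not tested, and other genes were not set beside this count. Bins held 132 to 456 control cells and 285 to 609 mutant cells in all.

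**Figure D5:**
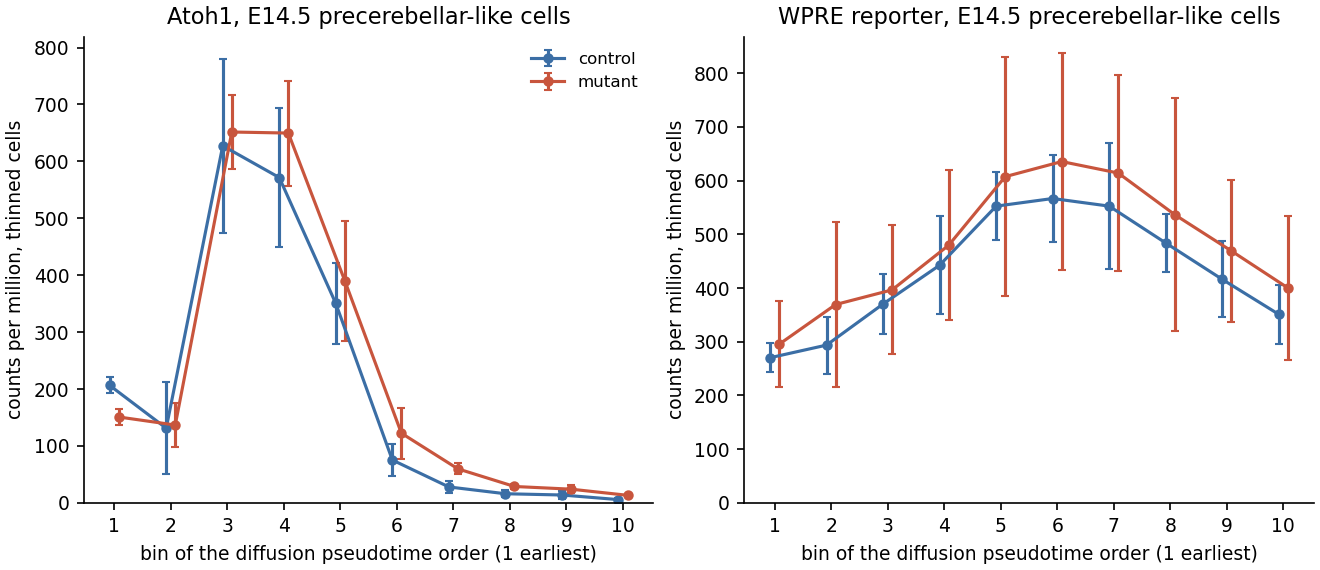
Atoh1 (left) and WPRE (right) along 10 bins of diffusion pseudotime in E14.5 precerebellar-like cells (x axes, bin 1 earliest; y axes, CPM of thinned cells, linear from 0). Points are the means of 3 control or 3 mutant libraries and bars their SD: Atoh1 peaks in bins 3 and 4 and drops to 5.65 CPM in controls and 13.2 CPM in mutants in bin 10, while WPRE peaks in bins 5 to 7.

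The distance between the transcripts was summarised as the UMI-weighted mean rank of WPRE minus that of Atoh1, in percent of the order. It was 21.8, 20.3 and 25.7 in controls and 18.8, 16.7 and 14.9 in mutants, and the groups did not overlap. It was lower in the mutant of 3 of 3 litters. The difference of means was -5.83 (exact two-sided permutation p = 0.1, the smallest possible). The mean rank of the cells themselves moved with it, from 56.9 ± 5.3 in controls to 43.4 ± 1.1 in mutants (SD, n = 3). With all bins weighted alike, which was likewise added later, the distance was 21.6 ± 1.2 in controls and 19.1 ± 1.9 in mutants, the groups overlapped, and p was 0.2 in the exact permutation test, which does not use the litters. The mutant was again lower in 3 of 3 litters. Weighted so, the mean rank of Atoh1 was 31.2 ± 0.68 in controls and 33.8 ± 1.2 in mutants, without overlap (exact permutation p = 0.1), and that of WPRE was 52.8 and 52.9.

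At P5, reporter and lineage gene had come apart. Precerebellar-like cells of the dissected PN had WPRE in 99.1% and 98.6% of cells, at 386 and 422 CPM in the 2 libraries, whereas Atoh1 was at 2.63 and 3.096 CPM. Atoh1 was detected in 340 of 4563 cells (7.45%, 95% exact binomial interval 6.71% to 8.25%) and in 266 of 2811 cells (9.46%, 8.41% to 10.6%). Intervals cover counting error only. Microglia-like cells, which should lack both, had Atoh1 in 2 of 692 cells (0.289%) and 2 of 437 cells (0.458%), so that the share in precerebellar-like cells was above this background. Depth differed, with clusters of precerebellar-like cells at 0.51 to 2.25 times the median UMIs of their libraries and those of microglia-like cells at 0.46 to 0.55 times.

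Background was larger for the reporter. Microglia-like cells had a WPRE UMI in 52.0% and 28.1% of cells, at 93.1 and 33.5 CPM, and glia-like cells in 50.9% and 51.5%, at 101 and 61.3 CPM. Oligodendrocyte lineage-like cells had WPRE in 57.2% and 35.8% of cells and Atoh1 in 7 of 909 (0.770%) and 0 of 285, where a limit of 3 counts allows a share of cells with a UMI of up to 1.05%. A WPRE UMI was thus also found in cells that should lack the reporter, and whether the glia-like and oligodendrocyte lineage-like cells carried it was not tested. The level in CPM in precerebellar-like cells was several times higher.

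The highest Atoh1 at P5 was in granule lineage-like cells of the second library, which held 711 of them against 11 in the first. Cycling cells had Atoh1 in 34 of 174 (19.5%), at 20.9 CPM, and Mapt-high cells in 49 of 537 (9.12%), at 15.7 CPM, with WPRE at 465 and 392 CPM. Mapt-high and cycling granule lineage-like cells gave 75 and 62 of the 489 Atoh1 UMIs of that library. In cluster 4, led by Meg3, Syt4 and Gap43, Atoh1 was at 3.25 and 4.93 CPM, and in cluster 6, led by Grp and Eomes, at 3.05 and 5.20 CPM.

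A list of 22 genes around ATOH1 was read beside it: E protein partners, Id inhibitors, which bind E proteins, Hes and Hey repressors of the Notch pathway, targets, and regulators. The study had named Barhl1, Nhlh1, Pcp4, Rab15, Dll1, Hes1 and Hes5 on these samples, so they are not independent evidence. Of 19 genes tested at E14.5 and 18 at E18.5, 0 were called between genotypes with edgeR, with median log2 changes of 0.06 and -0.05, beside medians of 0.01 and 0.00 over all genes tested. With the litter block, 8 of the 19 were called at E14.5, beside 17.9% of all genes in that fit. Of these, 5 were higher, namely Id1 (log2 change 0.94), Id3 (0.95), Hes1 (1.35), Hes5 (1.10) and the Notch ligand Dll1 (0.88), and 3 were lower, Barhl1 (-0.49), Rab15 (-1.23) and Pcp4 (-0.79). At E18.5 the block gave 2 lower genes of the 18, Barhl1 (-0.33) and Rab15 (-0.996), beside 0.374% of all genes called in either direction. Hes1 was on the other side of 0 at that stage (-0.46 with the block, edgeR adjusted p = 0.061) and lower in the mutant of 3 of 3 litters. For the difference between stages, the block called Hes1 (-1.79), Gli2 (-0.60) and Pcp4 (0.63), beside 14.8% of all genes, and without the block none of the listed genes was called. Rab15 was at 30.5 ± 11.6 CPM in controls and 12.7 ± 1.3 CPM in mutants at E14.5, and at 23.9 ± 3.5 and 12.2 ± 3.2 CPM at E18.5 (SD, n = 3). Rab15 was thus lower in the mutants, without overlap between genotypes at either stage, though edgeR without the block did not call it. Id1 and Hes1 had no overlap at either stage as well. Id1 was higher in the mutants at both stages, and Hes1 was higher at E14.5 and lower at E18.5. The share of all genes without overlap is not given here. One of the E14.5 precerebellar-like clusters led by Ccnd1 had Id1, Id3, Hes1 and Hes5 among its 10 leading genes. This was not particular to it, since a Pax6 and Sox2 cluster low in Hox genes had Id1, Id3 and Hes1 there, and a glia-like cluster Hes5. Precerebellar progenitor-like cells made up more of the mutant cells at E14.5, as given above, and their part in the Id and Hes values was not tested.

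Between E14.5 and E18.5 in controls, 12 of 20 listed genes tested were called, close to the 51.5% of all genes. Tcf4 (log2 change 0.48), Barhl2 (1.40), Gli2 (2.74), Nhlh1 (0.50), Zic1 (1.05) and Huwe1 (0.43) were higher, and Id1 (-1.51), Id3 (-4.29), Id4 (-2.66), Hes6 (-0.74), Dll1 (-1.67) and Pcp4 (-2.23) were lower, by edgeR.

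Over 102 sums of a class in an embryonic control library, which share libraries and depth, the genes most like Atoh1 in log2(CPM + 1) were Olig3 (Pearson's r = 0.76), a factor of the dorsal hindbrain progenitor zone, Hey1 (0.74), Gm17322 (0.74), Abracl (0.74) and Baz1a (0.73). Those most like WPRE were Zic2 (0.78), Zic5 (0.73), Dach1 (0.68), Sstr2 (0.65) and Tex14 (0.64). Atoh1 and WPRE had an r of 0.57 with each other. Gt(ROSA)26Sor had an r of -0.32 with WPRE and of -0.49 with Atoh1.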

How the data were processed

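Single-cell libraries of sorted hindbrain or PN cells were analysed from the UMI counts per gene and cell that the authors deposited. Per the study's methods and processing notes, the authors aligned reads to mm10 with WPRE added and counted UMIs with Cell Ranger 5.0.1, whereas the file headers give 3.1.0 for 2 libraries. Cells with at least 1000 genes and under 5% mitochondrial UMIs were kept, a wider limit than the study's, and the 7.5% with the highest Scrublet scores were removed per library. Clustering per stage used scanpy 1.11.5 (2000 variable genes, 30 components, 15 neighbours, Leiden resolution 1) in Python 3.11.15, without Atoh1, WPRE, the network list, sex-linked and mitochondrial genes. Limits on marker genes were set after cluster means had been seen, and a cluster went by number where its 10 leading genes held more markers of another class than of its own.

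The replicate was the library. UMIs were summed per library, or per class with at least 10 cells in every library, and genes with a UMI in 10% of the cells of either group were tested with the quasi-likelihood test of edgeR 4.0.16 in R 4.3.3 (TMM, Benjamini-Hochberg adjustment over all genes tested). Calls needed an adjusted p under 0.05 and an absolute log2 change over 0.25. DESeq2 1.42.0 was an alternative. Simulated data tested the edgeR step on 10246 genes of the E14.5 comparison, where it recovered 82% of 2-fold and 16% of 1.5-fold changes. It made 2 false calls there. On the same data, DESeq2 recovered 94% and 48% and made 24 false calls. The fit with the litter block was not run on simulated data. Shares and distances were tested by exact permutation in scipy 1.17.1. Same-numbered libraries were littermates per the methods, and their deviations from group means correlated (r of 0.526 to 0.925, against -0.800 to 0.455 for other pairs), so the number was used as a block in an alternative fit. Genes were named if they were Atoh1, WPRE, Gt(ROSA)26Sor, on the network list, or among the 5 most correlated with either (mean of at least 10 CPM); other names identify clusters or their markers. The genes studied, the lists and the tests were chosen with earlier results of these data known. Gene coordinates and sequence came from the GRCm38 reference.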

Additional observations from a re-analysis of the deposited data

How the results depend on the processing

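The alternatives were DESeq2, library totals in place of TMM, other gene filters, a mitochondrial limit of 10%, all barcodes, no doublet removal, Cell Ranger 5.0.1 libraries alone, Leiden resolution 2, other thinning depths, the litter block, and leaving out each library. One group of values covered whole comparisons, shares, the distance and the number of class tests called. Of these, 188 were counted as kept, 45 changed sign and 1 lost its call. Another 4 were settings in which more class tests were called, and no whole comparison gained a call. Kept meant the same direction and side of the threshold, or a similar number of class tests called. Shares, the distance and the class-weighted sums were tested by exact permutation, which cannot go below 0.1 here. For these, only the direction could change, so their side of the threshold was fixed in advance. Of the values for single classes, 212 kept direction and side of the threshold, 5 changed sign and 9 gained calls, which are the calls behind those 4 settings. The fall of Atoh1 between stages stayed at -1.38 with no gene filter but missed the threshold (edgeR adjusted p = 0.073, 24934 genes tested), and ran from -1.63 to -0.89 without 1 library. Values near 0 changed sign, and the cause was not tested. With Cell Ranger 5.0.1 libraries alone, E14.5 had 1 control library, assumed to vary like the other libraries, so its values are no check of the version. For WPRE, the E14.5 log2 change was -0.0090 with the block and -0.23 to 0.24 without 1 library, the E18.5 change -0.078 to 0.16, and the stage change 0.073 with library totals, 0.021 without a gene filter, 0.00062 with filterByExpr, 0.076 at the 10% limit, 0.097 with all barcodes, 0.018 with Cell Ranger 5.0.1 libraries, and -0.13 to 0.13 without 1 library. The genotype-by-stage term of Atoh1 was -0.19 at the 10% limit, -0.19 with all barcodes, -0.085 with the block, -0.45 with Cell Ranger 5.0.1 libraries and -0.50 to 0.26 without 1 library. That of WPRE was -0.022 with library totals, -0.060 at the 10% limit, -0.073 with all barcodes, -0.00086 without doublet removal, -0.029 with Cell Ranger 5.0.1 libraries and -0.21 to 0.25 without 1 library.

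Within classes, the calls of Atoh1 and WPRE together numbered 1 by edgeR, 2 with DESeq2, 4 without a gene filter, 5 with the litter block and 1 to 2 without 1 library, the second being Atoh1 in E18.5 glia-like cells without mutant replicate 3 (log2 change 3.48). The block changed no other call than those given in the report. Without a gene filter, Atoh1 was called in E18.5 glia-like (2.84), Mapt-high (0.93) and Neurod1-low (0.36) granule lineage-like cells as well. Atoh1 in precerebellar progenitor-like cells went to 0.039 with Cell Ranger 5.0.1 libraries, that is with 1 control library, and in intermediate progenitor-like cells ran from -0.021 to 0.24 without 1 library. In the E18.5 Pax6 and Sox2 cluster it was 0.012 without a gene filter and -0.084 to 0.055 without 1 library. Numbered clusters gave no value at resolution 2. The difference in the share of cells with WPRE at E18.5 was -0.276 percentage points at 8000 UMIs, -1.12 unthinned and -1.75 to 3.81 without 1 library, that at E14.5 -1.27 to 6.96, and that of cells with neither at E18.5 0.154, 0.989 and -4.55 to 1.05. Over all genes, calls without a gene filter numbered 2 at E14.5, 0 at E18.5 (462 at an unadjusted p under 0.05), 7870 between stages and 0 for the interaction (1399 at an unadjusted p under 0.05). With 3 libraries per genotype, exact permutation could not go below 0.1. Maturing cells held few Atoh1 UMIs, and whether this limited detection there was not tested.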
